A study of Mus musculus with 16 samples.

Results

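The late and early phases of hyperosmotic stress (HS) were compared in wild-type (WT) mIMCD3 cells, an immortalised mouse epithelial line derived from the collecting duct of the inner medulla, after treatment with the vehicle DMSO. The comparison used the 2 libraries labelled HS 1h DMSO and the 2 labelled HS 6h DMSO, 4 of the 16 RNA-seq libraries of the series, and all genes that passed an expression filter over the 12 WT libraries. Cells were given DMSO for 5 h and the medium was then replaced by hypertonic medium, stated as 600 mOsm for the 1 h exposure, while the osmolality of the 6 h exposure is not given in the sources used here. For reference, values are also given from 2 isosmotic WT DMSO libraries and from WT cells given sulforaphane (SFN, 10 µM), an activator of the transcription factor Nrf2, and then 1 h or 6 h of HS, with 2 libraries each. No isosmotic library matched to 6 h was used here, so the duration of stress and the time since the change of medium cannot be told apart. Of 55367 genes in the files, 30527 had a count in at least 1 of the 4 libraries and 18959 were tested.

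Cells of the renal inner medulla face high salt and urea. When the surrounding osmolality rises, water leaves the cell, volume shrinks and intracellular salt is concentrated, which disturbs transcription, translation and the cell cycle. Adaptation proceeds over hours: the transcription factor NFAT5 raises genes that import or make compatible organic osmolytes such as sorbitol, betaine, inositol and taurine, and heat shock proteins that protect other proteins, so that the excess of salt can be replaced by harmless solutes.

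The 4 libraries held between 35658359 and 41566500 counts, and the biological coefficient of variation between the 2 libraries of a condition was 0.0472 at 1 h and 0.0644 at 6 h. Between 23576 and 25115 genes had at least 1 count in each. The renal epithelial genes Pax2, Pax8 and Cdh16, the kidney cadherin, were well counted in all 4 libraries. Collecting duct identity was at most partial, since its water and sodium channels were weakly read. The water channel Aqp2, the defining marker of principal cells, was read at 0 to 0.124 CPM, the count scaled to library size after TMM (trimmed mean of M values) normalization. In each of the 4 libraries Aqp3 had 6 to 27 counts and Aqp4 had 0. The sodium channel subunits Scnn1a, Scnn1b and Scnn1g had 30 to 58, 0 to 6 and 0 counts. RNA came from whole cultures, so fewer cells of a type and less RNA per cell cannot be told apart. In the study's separate compound screen, viability of these cells after DMSO was lower with 6 h of hyperosmotic medium than with isosmotic medium. Viability of the cultures sequenced is not given, and the part of cell loss in the changes between 1 h and 6 h was not tested.

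Between 1 h and 6 h, 54.4% of the 18959 genes tested were called by edgeR's quasi-likelihood test at an adjusted p under 0.05. Of these, 5032 genes were higher at 6 h (26.5% of those tested) and 5291 were lower (27.9%). At least a 2-fold change was seen in 2845 of the higher genes and 1844 of the lower genes, 15% and 9.73% of those tested. The 2 libraries of one time lay fully above the 2 of the other for 5027 of the higher and 5289 of the lower genes. The median log2 change over all tested genes was 0.01 with TMM and -0.22 when libraries were scaled by their totals alone, and with that scaling the split of calls became 3829 higher against 7118 lower. Counts of the gene lists are therefore also given with library totals.

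Genes for organic osmolytes moved in both steps, with the larger changes after 1 h. Of 15 tested genes of NFAT5 and osmolyte metabolism, 9 were higher at 6 h than at 1 h and 3 were lower, with a median log2 change of 1.42. At 1 h against isosmotic cells 7 were higher and 1 lower with a median of 0.25, beside 14.3% and 8.53% of all genes tested. Akr1b3, the aldose reductase that makes sorbitol, was read at 405 and 421 CPM at 1 h and at 5520 and 5740 CPM at 6 h, against 338 and 373 CPM in isosmotic cells. The 2 late libraries lay far above all the others, and the fitted change between 1 h and 6 h was 13.6-fold (log2 change 3.77 ± 0.0657 SE, adjusted p = 9.4e-20). Slc5a3, the sodium/myo-inositol cotransporter, stood at 90.2 and 83.2 CPM at 1 h and 982 and 876 CPM at 6 h, a 10.7-fold rise. It had 2074 and 2113 raw counts in isosmotic cells and 3980 and 3139 at 1 h, so its level was already higher at 1 h. Slc6a6, the taurine transporter, did not pass the test between isosmotic and 1 h cells (246 and 258 CPM at 1 h) and stood at 1050 and 960 CPM at 6 h, a 3.98-fold rise over the 1 h level.

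Slc6a12, the betaine transporter, was nearly unread early, with 2 and 4 counts at 1 h and none in isosmotic cells, and reached 877 and 896 counts at 6 h (25.5 and 27.8 CPM). The fitted fold of 348 rests on 6 early counts. Nfat5 itself was called higher, from 348 and 345 CPM at 1 h to 1040 and 891 CPM at 6 h (log2 change 1.48 ± 0.174 SE, adjusted p = 0.000136). Chka, choline kinase, fell below its isosmotic level at 1 h (133 and 128 against 221 and 209 CPM) and stood at 657 and 623 CPM at 6 h. The 3 lower genes included Gdpd5, a phosphodiesterase that degrades the osmolyte glycerophosphocholine, which stood at 21 and 21.2 CPM at 1 h and 3.61 and 3.72 CPM at 6 h. The carnitine transporter Slc22a5 and Gdpd1 were the others, with log2 changes of -1.04 and -0.75.

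**Figure D1:**
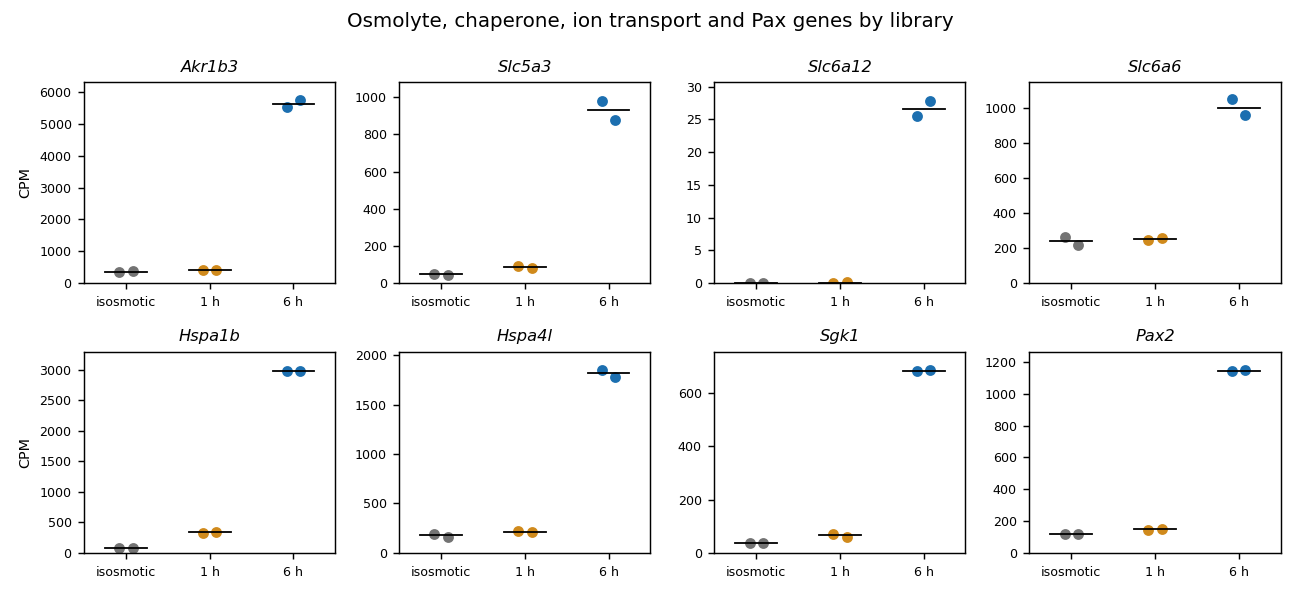
Normalized level (CPM, linear axis from 0) of 8 genes in each of the 2 libraries of isosmotic, 1 h and 6 h DMSO WT cells, with a bar at the mean. Points at 6 h lie above all points of the other times, and Akr1b3 is near 405 to 421 CPM at 1 h and 5520 to 5740 CPM at 6 h.

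Promoter sequences of 12126 tested genes were available from RefSeq (GRCm38.p6, 250 bases before to 50 after the annotated start), as 15364 windows. The consensus of the tonicity response element, the site bound by NFAT5, was found on either strand in 3.83% of all windows, in 4.19% of those of genes called higher and in 3.1% of those of genes called lower. Of the osmolyte genes with a window it was found in 3 of 18 windows, those of Gdpd1, which was called lower, Pnpla6 and Slc6a12. The window of Slc6a12 that held it is 1 of 5, at chr6:121342324-121342623 on the plus strand. It is shown because this gene had the largest fold of the list, with the match in capitals starting 75 bases before the start annotated for this window, and it is a description of the letters, not a measured binding site.
Slc6a12: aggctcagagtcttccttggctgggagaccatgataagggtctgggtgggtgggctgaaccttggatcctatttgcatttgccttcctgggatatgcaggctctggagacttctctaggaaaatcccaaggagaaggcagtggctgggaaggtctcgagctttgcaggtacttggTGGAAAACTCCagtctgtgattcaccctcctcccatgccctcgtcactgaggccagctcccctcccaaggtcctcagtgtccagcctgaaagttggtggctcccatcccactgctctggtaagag

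Heat shock chaperones were mostly higher at 6 h. Of 25 tested members, 16 were higher and 2 lower, with a median of 0.30, and 9 were higher and 6 lower when libraries were scaled by totals. Hspa1b, an inducible Hsp70, moved in both steps, from 81.5 and 80.2 CPM in isosmotic cells to 333 and 336 CPM at 1 h and 2990 and 2980 CPM at 6 h (8.93-fold between 1 h and 6 h). Its near-identical neighbour Hspa1a stood at 18.7 and 14.6 CPM at 1 h and 80.5 and 67.3 CPM at 6 h, and how shared reads were split between this pair is not stated. Hspa4l, an Hsp110 relative counted here with the osmolyte list, stood at 218 and 210 CPM at 1 h and 1850 and 1780 CPM at 6 h, an 8.48-fold change.

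Hsph1, another Hsp110 nucleotide exchange factor, rose from 401 and 388 to 1280 and 1360 CPM, and Hsf2, a heat shock factor, from 37.3 and 35.9 to 105 and 110 CPM. The small heat shock protein Cryab rose less (log2 change 1.07). Hspa8, the constitutive Hsc70, fell (log2 change -0.29), and the Hsp90 cochaperone Chordc1 fell further (log2 change -0.91). A window of Hsph1 (chr5:149636287-149636586, minus strand) is shown because it held the heat shock element TTCNNGAA in 2 places. The other window of Hsph1 overlaps it and holds the same matches. That element was found in 6 of 28 windows of chaperone genes. These came from 5 genes, namely Hsph1 with both windows, Chordc1, which fell, Dnajb4, Hspd1 and Hspe1. The element was found in 6.94% of all windows, with 6.71% for higher and 6.59% for lower genes. Its matches stand in capitals.
Hsph1: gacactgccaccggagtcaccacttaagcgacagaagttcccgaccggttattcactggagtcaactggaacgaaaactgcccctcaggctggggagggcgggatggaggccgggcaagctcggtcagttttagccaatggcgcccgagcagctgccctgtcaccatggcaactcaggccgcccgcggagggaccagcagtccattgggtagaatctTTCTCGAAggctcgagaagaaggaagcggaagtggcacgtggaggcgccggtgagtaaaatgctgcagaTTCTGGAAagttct

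Genes for ion transport moved in both directions, with several large rises. Of 30 genes for the sodium pump, sodium channels and volume-regulated transport, 14 were higher and 9 lower (10 and 12 with totals, so the balance turned). Sgk1, the serum and glucocorticoid regulated kinase that promotes sodium transport, stood at 71.4 and 59.8 CPM at 1 h and 684 and 685 CPM at 6 h, and Atp1b1, the beta subunit of the sodium pump, at 179 and 189 and then 776 and 809 CPM. The potassium channel Kcnk5 stood at 47.1 and 48 and then 183 and 171 CPM. In the other direction, Lrrc8e, a subunit of the volume-regulated anion channel, fell from 17.1 and 20.2 to 2.91 and 5.89 CPM.

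Fxyd4, a regulator of the sodium pump, had 0.408 and 0.398 CPM at 1 h and 17.6 and 11.6 CPM at 6 h, and its relative Fxyd2 had no count in either 1 h library and 99 counts at 6 h, at least 40.5-fold higher against a floor of 3 counts over the group. The water channels Aqp1 (1.36 and 1.33 to 13.1 and 17.7 CPM) and Aqp5 (0.408 and 0.504 to 1.72 and 2.2 CPM) were the called members of the 6 aquaporins tested. Aqp2 (adjusted p = 0.298) and Aqp3 (adjusted p = 0.107) did not pass the edgeR test, and Aqp3 passed as lower when only the 4 libraries compared were fitted (0.033).

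Of 20 tested collecting duct and renal epithelial genes, 11 were higher and 3 lower with a median of 0.70 (10 and 3 with totals). Pax2, a transcription factor of the kidney epithelium, stood at 145 and 153 CPM at 1 h and 1140 and 1150 CPM at 6 h, 7.71-fold higher, and its relative Pax8 at 103 and 103 and then 718 and 733 CPM, 7.03-fold higher. Cdh16 rose from 165 and 175 to 397 and 412 CPM. The grainyhead factor Grhl2 fell (log2 change -1.02), and the simple keratins Krt7 and Krt8 fell by 0.34 and 0.25 on the log2 scale, though Krt7 was not called with all 16 libraries (edgeR adjusted p = 0.0708).

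The largest folds among genes averaging at least 50 counts came from genes hardly read before 6 h. Gper1, a G protein coupled oestrogen receptor, stood at 1.25 and 0.743 CPM at 1 h and 503 and 525 CPM at 6 h, a fitted 506-fold rise. Prss35, a protease-like protein, stood at 0.317 and 0.159 and then 62.4 and 68.6 CPM, and the forkhead factor Foxq1 at 0.0907 and 0.159 and then 20.3 and 22.1 CPM. With no count at 1 h, the chitinase-like gene Chil4 was at least 118-fold higher (289 counts at 6 h), Akr1c18, an aldo-keto reductase, at least 109-fold, and the cornified envelope gene Sprr2e at least 90.5-fold, each against a floor of 3 counts over both 1 h libraries. Over all genes tested, 264 had no count in either 1 h library but some at 6 h, of which 243 were called higher. Another 107 had the reverse, of which 91 were called lower. Over all genes tested the shares called were 26.5% and 27.9%. Genes at 0 in a group passed the expression filter only through counts in other groups. Their high share of calls is therefore partly set by the filter and is not read as a result.

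Some markers of other cell types were among the weakly read genes that rose. Of 8 immune cell markers 6 were tested, 4 were higher and none lower, with summed levels of 15.7 and 17.2 CPM at 1 h and 29.7 and 31.3 CPM at 6 h. Ptprc, the pan-leukocyte CD45, went from 0.272 and 0 to 5.71 and 4.09 CPM, Itgam from 0 and 0.0796 to 2.65 and 2.42 CPM, and the T cell marker Cd3e had between 0 and 2 counts in each of the 4 libraries. The list's median was 2.90, and 1.73 with Adgre1, which had no count at 1 h, at its bound. All 4 tested endothelial markers were higher, with summed levels of 12.3 and 13.2 and then 44.7 and 48.3 CPM, most of it from Flt1, and 2 were called without 1 h replicate 1 or 6 h replicate 2. The Adgre1 call was lost without either 1 h library or 6 h replicate 1. Lrp2 was not called with all 16 libraries. Of the proximal tubule markers 2 of 3 were higher (Cubn and Lrp2), of the fibroblast markers 1 of 3 (Col1a1, not called without 1 h replicate 2 or 6 h replicate 2), and of intercalated cell markers none of 2. None of the 4 thick ascending limb markers reached the filter. The part of other cell types in these values was not tested.

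**Figure D2:**
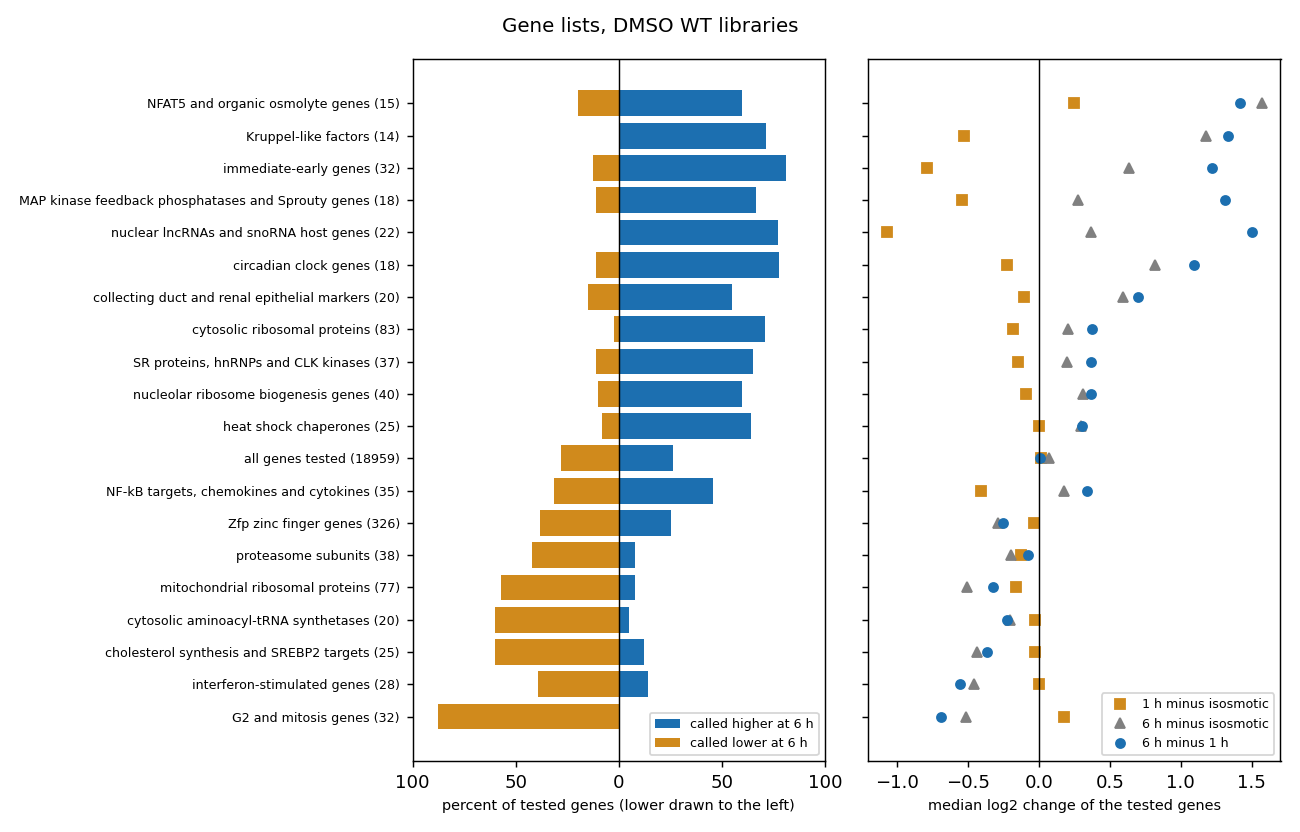
Left, percent of the tested genes of each list called higher (blue, to the right) or lower (orange, to the left) at 6 h than at 1 h, with the number tested in brackets. Right, the median log2 change of each list between the 3 pairs of times, which share libraries. All genes tested stand at 26.5% higher and 27.9% lower, and the G2 and mitosis list at 0 higher and 28 of 32 lower.

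A second group of genes had fallen below the isosmotic level at 1 h and was high at 6 h. Because the 3 comparisons share libraries, their values are given side by side and no overlap is counted. Of 32 immediate-early genes tested, 23 were called lower and 4 higher at 1 h than in isosmotic cells (median -0.79), beside 8.53% of all genes tested called lower and 14.3% called higher. The same list had 26 higher and 4 lower at 6 h than at 1 h (median 1.22, 25 and 4 with totals). Against isosmotic cells, 17 were higher and 11 lower at 6 h, beside 30.5% higher and 27.1% lower among all genes. The comparison of 1 h with isosmotic cells called 4334 genes, and 2457 without isosmotic replicate 2, 2479 without 1 h replicate 1 and 2594 without 1 h replicate 2.

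Arc, a neuronal immediate-early gene, went from 64.4 and 58.3 CPM in isosmotic cells to 17.7 and 19.5 CPM at 1 h and 319 and 288 CPM at 6 h. Fosl2, an AP-1 subunit, went from 220 and 184 to 90.5 and 102 and then 1310 and 1160 CPM. The small Maf protein Mafk had a similar course (85.4 and 76.3, 40.5 and 48.2, 295 and 269 CPM). In each of these the 1 h libraries were the lowest pair and the 6 h libraries the highest.

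Not all members took that course. Ier3, a survival-linked early gene, and the orphan receptor Nr4a2 did not dip and stood at 208 and 208 and 21.9 and 24.2 CPM at 1 h and at 1510 and 1510 and 167 and 156 CPM at 6 h. Egr1, Jund and Ccn1 fell at both steps, Egr1 from 260 and 239 to 160 and 162 and then 109 and 91.7 CPM. Jun was lower at 6 h by 0.27 on the log2 scale (adjusted p = 0.00713) and stood at 70 and 70.2 CPM beside an isosmotic 65.6 and 72.5 CPM. The Jun call was lost without 1 h replicate 1 (edgeR adjusted p = 0.129) and with all 16 libraries (0.0652).

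A list of MAP kinase feedback genes held mainly phosphatases and Sprouty or Spred proteins that switch the pathway off. Of 18 tested, 12 were higher and 2 lower between 1 h and 6 h (median 1.31, 10 and 4 with totals). At 1 h against isosmotic cells 0 were higher and 14 lower, beside 14.3% and 8.53% of all genes tested. The 18 include Errfi1 and Sprtn, which are neither, and Sprtn is not a feedback gene of this pathway. Sprtn had 2110 and 2249 raw counts in isosmotic cells, 1480 and 1318 at 1 h and 2659 and 2269 at 6 h. Dusp6, the ERK phosphatase, stood at 150 and 150 CPM in isosmotic cells, 57.3 and 62.3 CPM at 1 h and 1120 and 1120 CPM at 6 h, 18.7-fold above 1 h. Dusp2 fell from 76.6 and 82.4 to 3.79 and 6.37 CPM and came back in part, to 41.4 and 35.7 CPM, whereas Spry4 passed its isosmotic 23.3 and 19.9 CPM (5.69 and 5.91 CPM at 1 h, 32.6 and 29.6 CPM at 6 h). Spry1 and Dusp8 were the 2 that fell, with log2 changes of -1.02 and -0.88.

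Of 14 Kruppel-like factors, 10 were higher and none lower at 6 h (median 1.33, 9 and 0 with totals). Klf13 stood at 29 and 28.2 CPM at 1 h and 226 and 205 CPM at 6 h, and Klf5 at 72.9 and 75 and then 308 and 276 CPM, both from below isosmotic values of 45.2 and 37.3 and of 142 and 120 CPM. Klf4 rose at both steps, from 14.6 and 13.6 to 29.3 and 29 and 99.2 and 91.3 CPM. Klf2 did not pass the test (log2 change 0.05).

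Nuclear long noncoding RNAs and hosts of small nucleolar RNAs were low at 1 h and high again at 6 h. Of 22 tested, 13 were lower and 1 higher at 1 h than in isosmotic cells (median -1.07), beside 8.53% and 14.3% of all genes tested. At 6 h against 1 h, 17 were higher and none lower (median 1.5, 17 and 0 with totals). Neat1, the scaffold of nuclear paraspeckles, stood at 377 and 380 CPM in isosmotic cells, 27.6 and 29.3 CPM at 1 h and 231 and 252 CPM at 6 h, so the late level stayed below the isosmotic one (6 h minus isosmotic log2 change -0.65, called lower). Dancr (17.4 and 18.5, 3.92 and 2.6, 27.7 and 29 CPM) and Snhg4 (52.9 and 48.6, 10.2 and 9.02, 79.6 and 75.8 CPM) ended above their isosmotic values. These hosts carry snoRNA genes in their introns, and counting did not separate the parts.

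Splicing regulators moved in the same sense on a smaller scale, with 24 higher and 4 lower of 37 (median 0.37, 17 and 9 with totals). Clk4 and Clk1, kinases of SR splicing proteins, stood at 16.2 and 16.1 and at 29.6 and 27.7 CPM at 1 h and at 43.6 and 41.3 and at 53.1 and 54.8 CPM at 6 h. Both rises followed a dip. Clk4 had 1325 and 1520 raw counts in isosmotic cells and 714 and 608 at 1 h, and Clk1 had 2367 and 2468 and then 1306 and 1044. Hnrnpu, a nuclear matrix RNA-binding protein, rose from 1080 and 1070 to 2130 and 2100 CPM. Tra2b and Srsf3 were among the 4 that fell, with log2 changes of -0.66 and -0.25.

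Of 18 clock genes, 14 were higher and 2 lower (median 1.09, 12 and 2 with totals). Per1, a repressor limb of the clock that also answers to stress signals, stood at 45.7 and 43.7 CPM in isosmotic cells, 30.4 and 33.3 CPM at 1 h and 196 and 175 CPM at 6 h. The repressor Nfil3 (21.8 and 23.2 to 140 and 133 CPM), the repressor Cry1 (23 and 22.8 to 84.9 and 83.3 CPM) and the activator Arntl (9.88 and 10.3 to 29.4 and 31.7 CPM) were all higher, as was Nr1d1 (5.35 and 4.83 to 21.2 and 20.7 CPM). Bhlhe41 and Per3 were lower (log2 changes -1.30 and -0.66), and Per2 and Dbp did not pass the test. The Per3 call was lost without 1 h replicate 2 or 6 h replicate 2 (edgeR adjusted p = 0.061 and 0.0812).

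Of 35 NF-kB targets and cytokines, 16 were higher and 11 lower (median 0.34, 15 and 13 with totals). The neutrophil chemokines led the higher group. Cxcl5 stood at 3.67 and 2.52 CPM at 1 h and 110 and 117 CPM at 6 h, 36.3-fold higher, Cxcl1 at 41.4 and 37.4 and then 588 and 596 CPM, and Cxcl2 at 12.4 and 11.5 and then 153 and 151 CPM. Ptgs2, the inducible cyclooxygenase, stood at 219 and 218 and then 1850 and 1800 CPM. The prostaglandin receptor Ptger4 stood at 26 and 25 and then 68.6 and 63.1 CPM, below its isosmotic 107 and 102 CPM. In the lower group, the inhibitor Nfkbie fell from 17.5 and 16.8 to 3.78 and 3.29 CPM, and Tnip1, another brake on the pathway, from 70 and 67.4 to 22.5 and 23.3 CPM. Birc3 fell with them (log2 change -1.33).

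Some named genes had risen by 1 h and declined by 6 h. Over all genes tested, 14.3% were called higher and 8.53% lower at 1 h than in isosmotic cells. Krt15, a basal keratin, went from 0.0948 and 0.109 CPM in isosmotic cells to 17.2 and 20.4 CPM at 1 h and 2.01 and 1.55 CPM at 6 h, 10.5-fold below 1 h. Chrm1, a muscarinic receptor, had 134 and 114 counts at 1 h and 4 and 0 counts at 6 h. Rpl3l, a muscle paralog of a ribosomal protein, had 7 and 0 counts in isosmotic cells and stood at 4.01 and 5.17 CPM at 1 h and 0 and 0.217 CPM at 6 h. Fbxo41 stood at 4.01 and 4.43 and then 0.378 and 0.372 CPM, and Gramd2 at 17 and 16.4 and then 2.15 and 1.52 CPM. Other leading lower genes were not called at 1 h against isosmotic cells. Senp8, a NEDD8 protease, went from 6.39 and 5.6 to 0.757 and 0.372 CPM and Spns3 from 10.6 and 11.4 to 1.46 and 0.775 CPM.

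**Figure D3:**
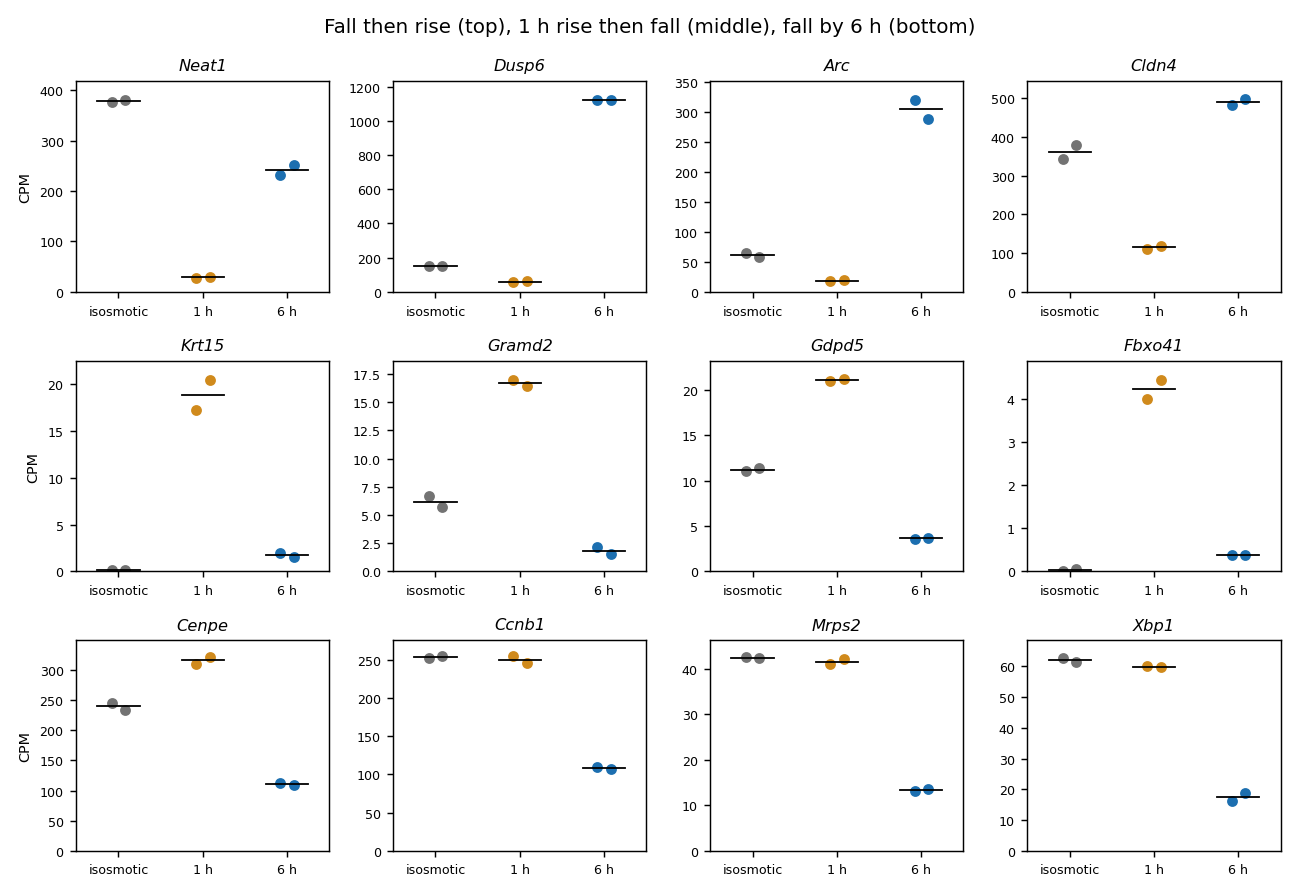
CPM (linear axes from 0) of 12 genes in each library of isosmotic, 1 h and 6 h DMSO WT cells, with a bar at the mean. The top genes fell at 1 h and were higher at 6 h, the middle genes were highest at 1 h, and the bottom genes were lowest at 6 h, as for Ccnb1 at 110 and 107 CPM.

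Genes of G2 and mitosis declined as a group. None of 32 was higher and 28 were lower at 6 h than at 1 h (median -0.69, 0 and 32 with totals). Of the 28, 8 were lower by at least 2-fold. At 1 h against isosmotic cells 13 were higher and 3 lower, beside 14.3% and 8.53% of all genes tested. Cenpe, a kinetochore motor, went from 245 and 234 CPM in isosmotic cells to 310 and 322 CPM at 1 h and 112 and 110 CPM at 6 h, 2.84-fold below 1 h. Ccnb1, the cyclin that drives mitotic entry, stood at 255 and 246 and then 110 and 107 CPM. The checkpoint kinase Ttk (40.7 and 40.8 to 15.1 and 15 CPM), the phosphatase Cdc25c (32.5 and 31.4 to 13.1 and 12.7 CPM) and the kinesin Kif2c (95.8 and 103 to 43.8 and 39 CPM) fell with them. Ccnf, Cenpa, Kif23 and Birc5 were the 4 that did not pass the test.

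Genes of S phase and replication were divided, with 16 higher and 9 lower of 34 (11 and 15 with totals, so the balance turned). Cdc6, a loading factor of replication origins, rose from 98 and 99.6 to 322 and 321 CPM, the clamp Pcna from 248 and 245 to 525 and 519 CPM, and E2f7 and E2f8, repressors of the E2F programme, by 1.5 and 1.40 on the log2 scale. The clamp loader subunit Rfc4 fell from 42.7 and 39.5 to 20.5 and 21.3 CPM, and the primase Prim1 by 0.54 on the log2 scale.

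**Figure D4:**
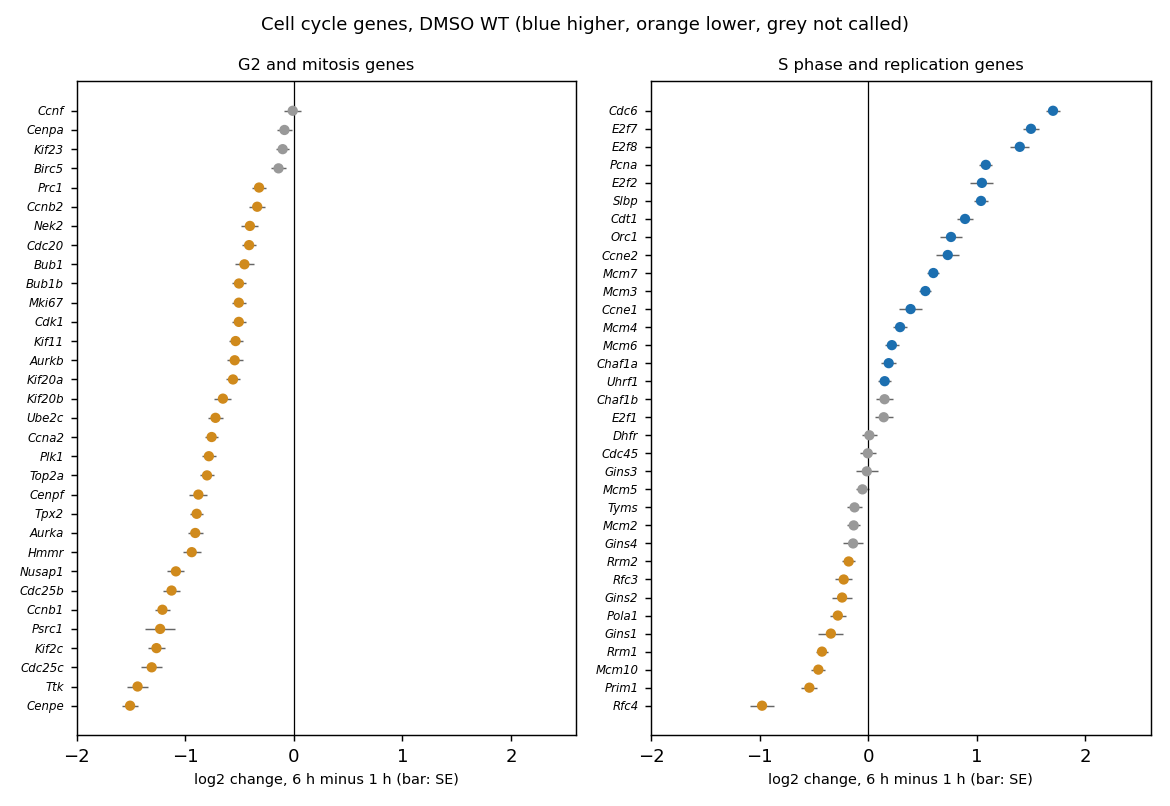
Log2 change between 6 h and 1 h for each tested gene of the G2 and mitosis list (left) and the S phase list (right), with its SE as a bar and genes ordered by change. On the left 28 of 32 are lower, with the lowest at -1.51 (Cenpe), and on the right Cdc6 is at 1.70 and Rfc4 at -0.98.

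A G2 and mitosis gene often carries a cell cycle homology region (CHR), TTTGAA, which is bound by complexes that regulate cell cycle genes. It was found in 20 of 29 windows of this list (69%), against 12.5% of all windows, 11.9% of windows of higher genes and 13% of windows of lower genes. The windows of Ttk and Kif2c are shown because both genes are among the 6 members with the largest fall and hold the motif, in capitals and as TTCAAA, the element read on the other strand. They lie at chr9:83834439-83834738 (plus strand) and chr4:117178723-117179022 (minus strand), and no binding was measured here. The other members of those 6, Cenpe, Cdc25c, Psrc1 and Ccnb1, had no match or no window. Ccnf, Cenpa and Kif23, which were not called, held the motif, so the windows shown do not tie it to the size of the fall.
Ttk: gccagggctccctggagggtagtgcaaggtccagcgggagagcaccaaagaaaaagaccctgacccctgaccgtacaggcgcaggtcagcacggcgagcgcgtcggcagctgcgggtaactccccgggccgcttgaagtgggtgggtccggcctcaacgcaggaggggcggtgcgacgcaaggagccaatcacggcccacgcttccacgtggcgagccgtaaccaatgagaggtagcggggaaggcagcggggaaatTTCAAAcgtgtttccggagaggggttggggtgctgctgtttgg
Kif2c: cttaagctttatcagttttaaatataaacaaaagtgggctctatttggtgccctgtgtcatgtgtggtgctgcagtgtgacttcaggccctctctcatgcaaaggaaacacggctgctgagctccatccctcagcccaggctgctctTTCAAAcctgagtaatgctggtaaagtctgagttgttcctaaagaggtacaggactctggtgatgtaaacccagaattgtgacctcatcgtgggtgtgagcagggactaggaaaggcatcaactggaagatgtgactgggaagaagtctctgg

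Genes of cell cycle arrest and death were split. Of 27 p53 and Gadd45 genes, 9 were higher and 12 lower (7 and 14 with totals). Cdkn1a, the p21 inhibitor, stood at 49.8 and 46.8 CPM at 1 h and 119 and 112 CPM at 6 h, and Gadd45g fell from 104 and 107 to 25.1 and 27.9 CPM. Cdkn1a had 3374 and 4249 raw counts in isosmotic cells and 2198 and 1764 at 1 h, so its rise followed a dip. Of 15 Bcl2 family genes 7 were higher and 5 lower (5 and 6 with totals, so the balance turned). The rises included the killer Bcl2l11 (20 and 18.5 to 97.8 and 99.1 CPM) and the protectors Bcl2l1 and Mcl1 (log2 changes 1.42 and 1.19), while Bcl2 fell (log2 change -1.03).

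Genes of the translation machinery moved in both directions. Of 77 mitochondrial ribosomal protein genes, 44 were lower and 6 higher (median -0.33, 59 and 3 with totals). Mrps2 fell from 41 and 42.2 to 13.2 and 13.6 CPM, Mrps22 from 32.3 and 30.5 to 13.5 and 11.2 CPM and Mrpl15 from 52.6 and 55.5 to 24.3 and 21.5 CPM, and Mrps6 rose from 28.6 and 28.2 to 120 and 133 CPM. Of 83 cytosolic ribosomal protein genes, 59 were higher and 2 lower (median 0.38, 19 and 2 with totals, 12 and 2 when all 16 libraries were fitted). Rpl23a stood at 220 and 231 CPM at 1 h and 330 and 349 CPM at 6 h and was not called with all 16 libraries (edgeR adjusted p = 0.083). Rps10 had a larger rise (1.9 and 1.64 to 17.7 and 17.5 CPM), after a dip from 437 and 573 raw counts in isosmotic cells to 84 and 62 at 1 h. Ribosomal protein genes have many near-identical copies whose shared reads could be lost or split.

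Nucleolar genes of ribosome assembly were 24 higher and 4 lower of 40 (median 0.37, 18 and 12 with totals), with Rrs1, Gnl3 and Utp4 rising by log2 changes of 1.13, 1.02 and 1.01. Cytosolic aminoacyl-tRNA synthetases, which charge tRNAs with amino acids, were 12 lower and 1 higher of 20 (median -0.23, 18 and 0 with totals). Aars fell from 402 and 410 to 259 and 266 CPM, Dars from 158 and 159 to 107 and 103 CPM and Rars from 218 and 217 to 145 and 151 CPM. Cars was the one higher (log2 change 0.23) and lost its call with totals, with all 16 libraries (edgeR adjusted p = 0.0531), without 1 h replicate 1 (0.106) and without 6 h replicate 2 (0.118). Nuclear genes of the respiratory chain had 21 higher and 2 lower of 77 with TMM and 4 higher and 17 lower with totals, so no direction is given for them, and 10 were higher without 1 h replicate 2 and 11 without 6 h replicate 2. The 13 protein genes of the mitochondrial genome were listed at 0 in all 4 libraries.

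Stress pathways of the endoplasmic reticulum and of amino acid supply did not move as blocks. Of 28 endoplasmic reticulum chaperone and unfolded protein response genes 9 were higher and 7 lower (2 and 10 with totals, so the balance turned). The transcription factor Xbp1 fell from 60 and 59.6 to 16.1 and 18.9 CPM, while the cochaperone Dnajb9 rose from 15.3 and 17.5 to 58.4 and 57.3 CPM and the sensor Atf6 from 92.4 and 95.6 to 210 and 200 CPM. Of 19 genes of the integrated stress response 8 were higher and 6 lower (8 and 7 with totals). Nupr1, a stress-induced chromatin protein, stood at 16.2 and 20 CPM at 1 h and 407 and 451 CPM at 6 h, 23.8-fold higher, and Ddit4, an inhibitor of the mTOR pathway, at 29.1 and 31.4 and then 145 and 152 CPM. The pseudokinase Trib3 fell from 18.6 and 19.8 to 4.74 and 3.16 CPM, Gdf15 from 170 and 195 to 73.3 and 78.1 CPM after an earlier fall from 340 and 398 CPM, and Ddit3 by 0.50 on the log2 scale (adjusted p = 0.016). The Ddit3 call was lost without 1 h replicate 1 (edgeR adjusted p = 0.115), without 6 h replicate 2 (0.178) and with all 16 libraries (0.14).

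Amino acid transporters were 8 higher and 5 lower of 21 (6 and 8 with totals, so the balance turned). Slc38a2, the osmotically regulated neutral amino acid transporter, rose at both steps, from 331 and 306 to 740 and 726 and then 2100 and 1820 CPM. Slc7a6 and the cationic transporter Slc7a1 rose from 124 and 125 to 319 and 325 CPM and from 205 and 208 to 526 and 496 CPM. Slc38a9, the lysosomal arginine sensor, fell from 18.8 and 17.6 to 5.88 and 4.71 CPM.

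Of 17 enzymes of serine, asparagine and proline supply and one-carbon metabolism 7 were higher and 3 lower (7 and 7 with totals). Cholesterol synthesis was mostly lower, with 15 lower and 3 higher of 25 (median -0.37, 19 and 2 with totals). Dhcr7, the last enzyme of the pathway, fell from 34.6 and 38.2 to 16.3 and 16.2 CPM.

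Autophagy and lysosome genes were 19 higher and 11 lower of 43 (15 and 16 with totals, so the balance turned). Flcn, a nutrient sensor at the lysosome, rose from 33.5 and 34.9 to 223 and 228 CPM, and Uvrag, an autophagy regulator, from 40.9 and 39.7 to 171 and 172 CPM, while Atg5 fell by 0.79 on the log2 scale. Proteasome subunits were 3 higher and 16 lower of 38 (2 and 28 with totals), with Psmd6 and Psmd12 lower by 0.66 and 0.63 and Psmd5, an assembly chaperone, higher by 1.12 on the log2 scale. Of 24 genes of glucose uptake and glycolysis 13 were higher and 7 lower (9 and 8 with totals). Pfkfb3, which makes an activator of glycolysis, stood at 27.9 and 26.9 and then 96.1 and 87.5 CPM, Hk2, hexokinase, at 118 and 128 and then 341 and 337 CPM, and Pkm, pyruvate kinase, at 2110 and 2150 and then 3910 and 4020 CPM. Txnip, a brake on glucose uptake, fell from 31.8 and 29.6 to 6.35 and 6.91 CPM.

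Targets of the coactivator YAP and of serum response factor were divided, with 8 higher and 8 lower of 18 and 8 and 8 of 26 (2 and 11 for the latter with totals). Ankrd1 and Ccn2, classical YAP targets, fell at both steps, Ankrd1 from 1380 and 1480 to 868 and 906 and then 414 and 424 CPM. Fhl2 dipped at 1 h to 88.9 and 90.2 CPM and stood at 323 and 331 CPM at 6 h. Tight junction genes were 9 higher and 9 lower of 26 (7 and 10 with totals). Cldn4, an epithelial claudin, went from 343 and 378 to 111 and 119 and then 483 and 498 CPM, the polarity protein Pard6b rose from 82.1 and 80.9 to 475 and 448 CPM, and the scaffold Tjp1 fell from 297 and 301 to 180 and 174 CPM. The basal cell contact list of laminins and integrins had 10 higher and 3 lower of 26 (7 and 11 with totals, so the balance turned), led by Itga3 (1040 and 1080 to 2560 and 2600 CPM).

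BMP and TGF-beta genes were 11 higher and 5 lower of 21 (11 and 7 with totals). The inhibitor of differentiation Id1 went from 236 and 265 CPM in isosmotic cells to 42.8 and 45.1 CPM at 1 h and 88.7 and 95.4 CPM at 6 h, whereas Id3 fell at both steps (163 and 187, 114 and 114, 41.1 and 44.5 CPM), as did the inhibitory Smad6 after 1 h (35.7 and 39.8 to 11.4 and 13 CPM). Interferon-stimulated genes were 4 higher and 11 lower of 28 (median -0.56, 2 and 15 with totals), with the RNA sensor Ifih1 falling from 13.1 and 12.7 to 4.19 and 3.6 CPM and Stat2 from 38.5 and 33.3 to 14.8 and 17.8 CPM. Of 326 Zfp zinc finger genes 82 were higher and 124 lower (median -0.25, 60 and 158 with totals). Clustered histone genes had none called of 4 tested. Of 11 prostaglandin genes 6 were higher and 3 lower, and of 6 metallothionein and zinc transport genes 2 and 2.

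Genes of the Nrf2 pathway were 10 higher and 4 lower of 32 (7 and 10 with totals, so the balance turned). Nfe2l2, which encodes Nrf2, rose from 64.1 and 69.4 to 146 and 140 CPM and Keap1, its inhibitor, fell from 54.6 and 55.2 to 23.7 and 23.2 CPM. Gclc, which makes glutathione, rose from 62.6 and 60.1 to 143 and 152 CPM and Hmox1, haem oxygenase, from 51.2 and 53.1 to 102 and 107 CPM. Osgin1 fell from 10.7 and 12.2 to 5.65 and 7.01 CPM.

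The same time step after SFN, in libraries that shared the filter and the fitted spread with the DMSO comparison but none of its values, called 10391 genes, 5163 higher (27.2%) and 5228 lower (27.6%). Of the 5032 genes higher after DMSO, 99.4% had the same sign after SFN and 4325 were called in the same direction, 85.9% of the DMSO calls and 83.8% of the SFN calls. Of the 5291 lower genes, 98.7% had the same sign and 4524 were called, 85.5% and 86.5%. Across the 18959 genes, which are not independent replicates, the log2 changes had a Pearson r of 0.827 and a Spearman rho of 0.856. The osmolyte list had a median of 1.71 after SFN, against 1.42 after DMSO, and none of its 15 genes differed between the pretreatments in the interaction test.

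That test called 14 genes (0.0738% of those tested), 13 (0.0686%) with a lower time change after SFN and 1 (0.00527%), Rgs16, with a higher one, and 1055 genes had an unadjusted p under 0.05. Of the 13, 6 are in the Nrf2 target list. The count was between 5 and 9 when any single DMSO library, either SFN 1 h library or SFN 6 h replicate 1 was left out, and 11 without SFN 6 h replicate 2. Hmox1 stood at 254 and 252 CPM at 1 h and 134 and 138 CPM at 6 h after SFN, so it fell where it had risen after DMSO (difference of log2 changes -1.90 ± 0.103 SE, edgeR adjusted p = 1.33e-09). Srxn1, sulfiredoxin, fell from 196 and 198 to 101 and 95.7 CPM after SFN, against 55.2 and 57.6 and then 69.8 and 64.2 CPM after DMSO. The DMSO call of Srxn1 was lost with totals and without 1 h replicate 1 or 6 h replicate 1. Hspa1b and Hsph1 rose after both, by 2.70 and 1.22 after SFN and by 3.16 and 1.74 after DMSO on the log2 scale, and both differences passed the test.

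**Figure D5:**
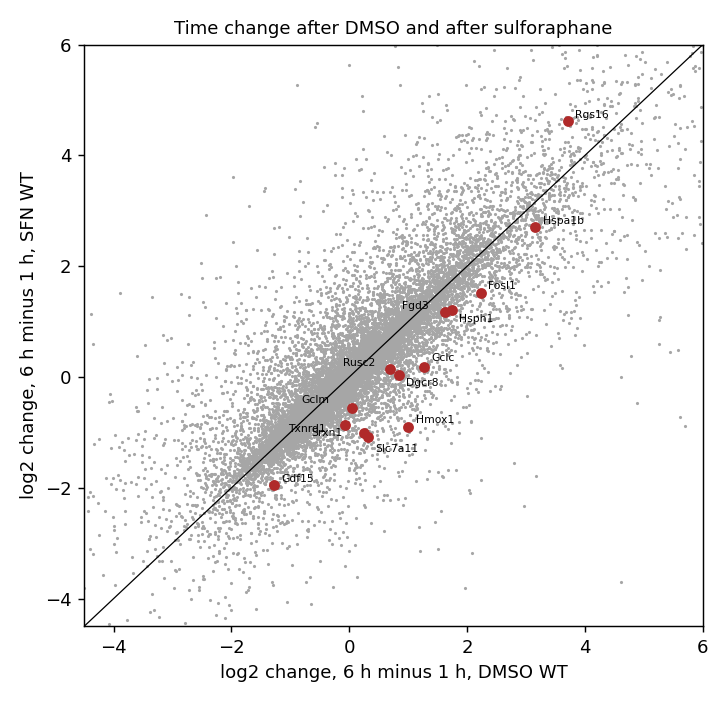
Each point is a tested gene, with its log2 change between 6 h and 1 h after DMSO (x) and after SFN (y), the line marking equal change and red points the 14 genes called in the interaction test. 584 genes lie outside the axes, and Hmox1 is at 1.00 and -0.89.

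Genes called lower were more often protein coding and long than those called higher, as a description. Among genes with a model matched by symbol in GENCODE M21 (97.5% of those tested), 93.6% of lower genes and 76.8% of higher genes were protein coding, against 75.9% of all, and the median genomic span was 25600 bp for lower, 15100 bp for higher and 15600 bp for all. Of higher genes 31.9% had under 1 CPM in isosmotic cells, against 8.73% of lower genes, 52% of genes not called and 34.6% of all. The higher genes were thus near the share of all genes tested, and the lower genes below it. The log2 change followed transcript length weakly across genes (Spearman rho -0.117) and GC content hardly at all (rho 0.00286).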

How the data were processed

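Total RNA from cells labelled mIMCD3 was sequenced on the Illumina NovaSeq platform. The extraction label instead names primary TEC as the source, and this difference was not resolved. The authors aligned the reads to mm10, and featureCounts gave a table of reads by gene symbol. The study's methods name Hisat2 and the submitters' processing notes name Bowtie2 as the aligner, and versions, annotation and strand setting are not given in the sources used here. The deposited values are raw counts, not normalized. Even values made up 61.8% to 64.6% of counts from 1 to 10 in the 4 libraries, and the reason for this excess of even values was not tested. Reads shared by near-identical or overlapping genes can be lost or split. Labels name biological samples as replicates without saying how cultures were separated, so p-values measure the spread between these libraries.

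Groups and replicate numbers came from the labels. The 12 WT libraries were fitted together by edgeR 4.0.16's quasi-likelihood test (TMM scaling, filterByExpr, robust dispersion, Benjamini-Hochberg adjustment over all 18959 genes, threshold 0.05), in R 4.3.3, with a term for each of 6 groups. The script was tested on simulated data. Genes named are the 15 with the largest change in each direction among called genes averaging at least 50 counts whose libraries did not overlap, up to 6 called members of each list per direction, Nfat5, Nfe2l2 and Keap1, and up to 5 genes per direction of the interaction test. Members that were not called, and genes standing for a marker list, are named with their values. Members and lists were chosen with earlier results of these data known. The replicate numbers did not pair the libraries, since same-numbered libraries' deviations correlated at -0.0816 to 0.0334. Alternatives were RLE scaling, DESeq2 1.42.0, other count filters, other sets of libraries, a replicate block, a 2-fold minimum, each library left out, and, added after seeing the data, scaling by library totals. Fold floors used 3 counts over a group and cover counting error only.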

Additional observations from a re-analysis of the deposited data

Results flagged for a closer look

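In the test of whether the change between 1 h and 6 h differed between SFN and DMSO pretreatment, 14 genes passed the edgeR adjusted threshold, and each value below is the SFN log2 change minus the DMSO log2 change. Values of Nrf2 targets were -1.90 for Hmox1, -1.42 for Slc7a11, -1.25 for Srxn1, -1.08 for Gclc, -0.80 for Txnrd1 and -0.61 for Gclm. The other values below 0 were -0.80 for Dgcr8, -0.71 for Fosl1, -0.68 for Gdf15, -0.56 for Rusc2, -0.53 for Hsph1, -0.46 for Fgd3 and -0.46 for Hspa1b. Rgs16, a regulator of G protein signalling, was the gene above 0, at 0.91. Slc7a11, Txnrd1 and Gclm did not pass the edgeR test between 1 h and 6 h after DMSO (adjusted p = 0.08, 0.31 and 0.51) and were lower at 6 h after SFN, with log2 changes of -1.09, -0.86 and -0.56. After DMSO, Slc7a11 passed as higher with RLE scaling (adjusted p = 0.0438), DESeq2 (0.0498) and at least 10 counts in every library (0.0346), and Txnrd1 as lower with library totals (log2 change -0.293, edgeR adjusted p = 8.49e-05).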

How the results depend on the processing

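The DMSO comparison of 6 h with 1 h called 10323 genes, and between 8656 and 8890 when 1 library was left out. A 2-fold minimum left 4689 genes after DMSO, 4793 after SFN, 5190 for 6 h against isosmotic cells, 2056 for 1 h against isosmotic cells and 4 for the difference between pretreatments. That difference gave 26 genes with DESeq2, 39 with no filter on low counts, 2 with all 16 libraries, 78 with the 8 libraries of its 4 groups, and 5 to 11 with 1 library left out. The comparison of 1 h with isosmotic cells gave 2610 genes with at least 10 counts in every library, 2186 with all 16 libraries and 2457 to 4459 with 1 library left out. Scaling by library totals, chosen after seeing the data, turned Gclm to -0.173. Of 238 genes followed over 3302 pairs of gene and alternative, 72 genes changed in some pair, with 93 pairs losing the call, 5 gaining it and 1 reversed. Calls of Jun, Ddit3, Cars, Per3, Col1a1, Adgre1 and Srxn1 were lost when 1 library was left out, and those of Krt7, Lrp2 and Rpl23a with all 16 libraries. The replicate block gave 10111 genes after DMSO, 10159 after SFN and 13 for the difference, and same-numbered libraries did not deviate together. The causes were not tested. Depth limits genes read at a few counts.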
